A study of Drosophila melanogaster with 4 samples.

Results

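The 8 genes described here encode proteins that package DNA in the *Drosophila* sperm head: the protamines *Mst35Ba* and *Mst35Bb*, the further sperm chromatin proteins *Mst77F*, *Prtl99C* and *Mst33A*, the transition protein *Tpl94D*, and the HMG-box proteins *tHMG1* and *tHMG2*. They were given by name, and their probe sets were taken from the annotation of the array, which lists 9 of the 18769 probe sets tested. Each gene has 1 probe set of its own, and 1 further probe set is given to both *Mst35Ba* and *Mst35Bb* and names neither. The gene table used here calls this pair *ProtA* and *ProtB*, with no other protein-coding gene between them, and *tHMG1* and *tHMG2* are likewise neighbours. Transcripts were measured on GeneChip *Drosophila* Genome 2.0 arrays, where several short probes for each transcript give 1 intensity. There were 2 arrays of testes from *nsr* mutant males and 2 of testes from WT males, all aged 0 to 2 days and with the seminal vesicles removed. The mutant is homozygous for a targeted deletion of *nsr* (*CG3875*), a young duplicate of the RNA-binding gene *kep1*, and the WT line is the recombinant that kept the normal allele in the same targeting, so that both share their background. The deletion was designed to begin shortly after the transcription start of *nsr* and to end inside its 3′ UTR. The RNA of each array was extracted separately, but no source says that the flies were grouped separately, so that a p-value covers the spread between these samples alone, which may be technical.

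In many animals, the histones of round spermatid nuclei are removed while the head elongates and are replaced by small basic proteins. In *Drosophila*, Tpl94D and the tHMG proteins appear only for a short time in this exchange, and Mst35Ba, Mst35Bb, Mst77F and Prtl99C then stay in the mature sperm until the egg takes them out. Transcripts of most of these genes are made early, in primary spermatocytes, and are stored untranslated until the spermatids elongate. A level in RNA of a whole testis therefore counts both the cells that make these transcripts and those that keep them. In such bulk samples fewer cells of a type and less RNA per cell cannot be told apart.

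The *nsr* probe set bore out the labels, with intensities of 23.2 and 27.6 in mutant testes and 549 and 554 in WT testes (log2 fold change -3.78, adjusted p = 0.00837 from limma over all probe sets). It was the only probe set called, or 0.00533% of those tested. This count depended on the fit, with 0 calls without any 1 array or with a pseudocount of 1, 80 or 111 with centred arrays and 117 to 136 with filters on level, and none of the calls was a sperm chromatin probe set. The highest of 70 negative control probe sets lay between 5.88 and 8.92, and all 9 sperm chromatin probe sets exceeded it on all 4 arrays. Array 1 of each genotype was dimmer than array 2, with medians over the 9743 probe sets above these controls on all arrays of 87.0 and 96.9 in the mutant and 91.8 and 106.9 in WT. Of 29 markers of other cell types and stages, 24 were measured. *vas*, *tj*, *upd1*, *Acp26Aa*, *Yp1* and *Yp2* were at control level on every array, and *zfh1*, *SP*, *Acp62F* and *PebII* on some. Of the cyst and hub markers only *eya* exceeded the controls on all 4 arrays. None of the 24 was called. The muscle gene *fln* alone had an unadjusted p under 0.05 (limma), as 7.13% of all probe sets had. It was low in level, at 30.15 and 28.22 in the mutant and 13.76 and 16.9 in WT. The summed intensity of the muscle markers was 96.0 and 110 in the mutant and 76.1 and 97.9 in WT, that of the cyst and hub markers 137 and 87.2 against 134 and 128, and that of the ejaculatory duct and bulb markers 735 and 848 against 917 and 982. The accessory gland markers summed to 421 and 522 in the mutant and 421 and 468 in WT, the fat body markers to 149 and 142 against 140 and 170, and the early germline markers to 169 and 189 against 170 and 220. Most of a sum can come from 1 gene. *eya* had 125.5 and 77.7 in the mutant and 113.5 and 120.3 in WT, most of the cyst and hub sum. *PebIII* gave most of the ejaculatory sum (687.7 and 773.1 against 823.5 and 939.1), and *Acp95EF* most of the accessory gland sum (350.4 and 423.7 against 345.0 and 377.6). The part of these cell types and stages in the values below was not tested.

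None of the 8 genes, and not the shared probe set, passed the test between genotypes, with adjusted p from 0.690 to 1.0 (limma on log2(intensity + 16), 2 arrays per genotype). At an unadjusted p under 0.05 there was 1 gene, *Mst33A*, where 7.13% of all probe sets are. None of the 8 reached a 2-fold difference on the log2 scale, which 0.0693% of all probe sets did. In 4 genes the log2 fold change was above 0 and in 4 below. Their median was -0.04, as was that of all 18769 probe sets, while that of the 9743 above the controls was -0.08. The sign of this median was not stable, since it was 0.03 or 0.06 with centred arrays, 0.04 with quantile normalization, 0.05 without *nsr* mutant 1 and -0.12 without *nsr* mutant 2. In 3 genes, *Mst77F*, *Mst33A* and *Tpl94D*, the mutant pair of arrays lay wholly below the WT pair, as it did for 24.9% of all probe sets and 27.7% of those above the controls. In none of the 8 did it lie wholly above, as it did for 10.2% and 7.86%. Counts of 3 and 0 among 8 genes are too small to be set apart from these shares, and nothing particular to the genes is read from them.

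**Figure D1:**
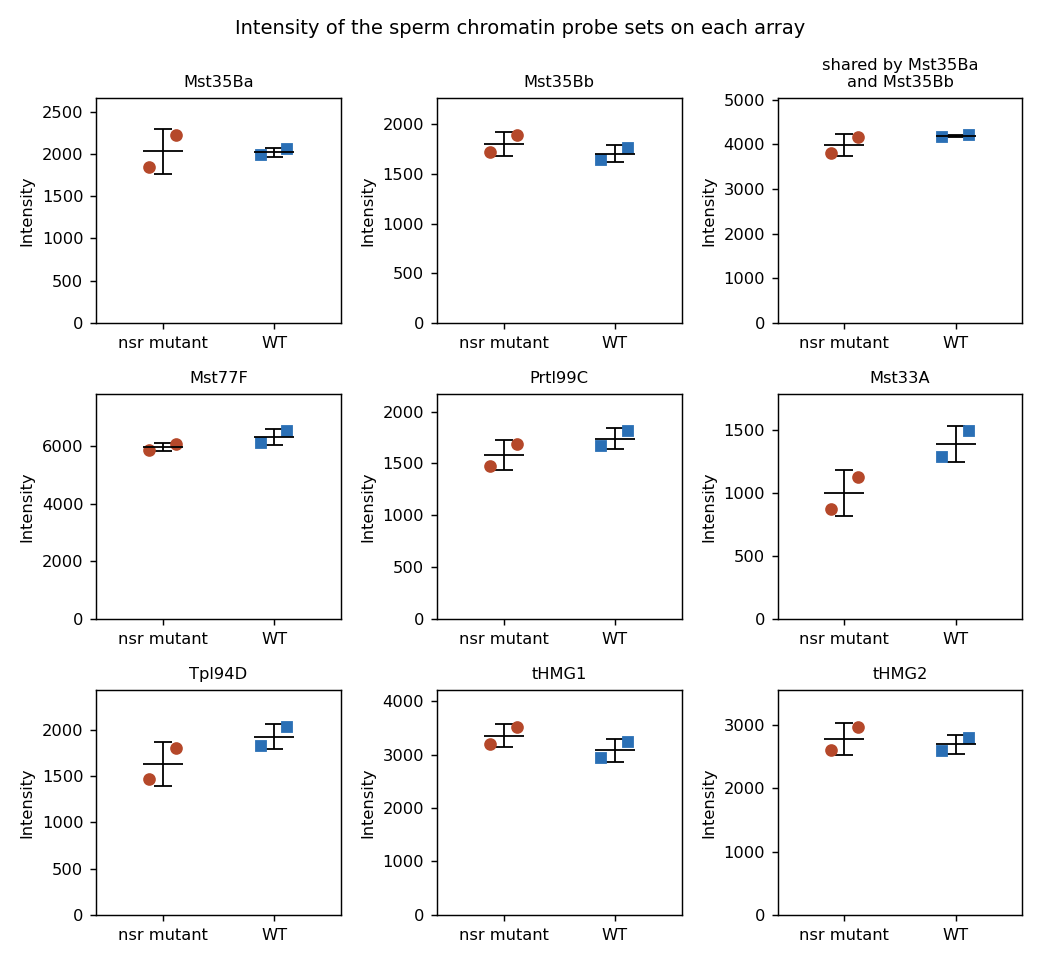
Intensity (linear axis from 0, a separate scale for each panel) of the 9 probe sets on each array, with circles for the *nsr* mutant, squares for WT, array 1 to the left of array 2, and a bar for the mean ± SD of 2 arrays. *Mst33A* shows the widest gap between genotypes, while most of the others overlap.

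The protamines come first by role, as the main basic proteins of the condensed head, rich in arginine and cysteine. *Mst35Ba* had intensities of 1845 and 2218 in the mutant and of 1982 and 2057 in WT. The WT values lay between those of the mutant. The log2 fold change was 0.00 (standard error 0.12), and the 95% interval of the ratio of mutant to WT ran from 0.800 to 1.25. *Mst35Bb* had 1719 and 1889 in the mutant and 1645 and 1767 in WT, which overlapped. Its mutant mean was 1.06 times the WT mean, with an interval from 0.874 to 1.28 (adjusted p = 0.920 from limma). The probe set that both genes share had 3812 and 4166 in the mutant and 4164 and 4201 in WT, a log2 fold change of -0.07. No difference in the protamine transcripts was detectable with 2 arrays per genotype, and the bounds of the intervals give the size of change that they leave unresolved.

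*Mst77F* encodes a linker-histone-like protein of the sperm head that shapes the nucleus, and males that lack it are sterile. It was bright on every array, at 5868 and 6068 in the mutant and 6122 and 6507 in WT. Both mutant values lay below both WT values, although by less than the distance between the WT arrays for the closest pair. The mutant mean was 0.945 times that of WT, with an interval from 0.797 to 1.12 (adjusted p = 0.902 from limma). The Y chromosome carries near-identical copies of this gene, the *Mst77Y* group, with 19 entries in the gene table, 8 of them protein-coding and 11 pseudogenes. No probe set is given to any of these entries, and whether the *Mst77F* probes also bind their transcripts was not tested, so that the value may not belong to *Mst77F* alone. *Mst77F* also overlaps *Pka-R1*, whose brighter probe set had mean intensities of 21.2 ± 5.35 (SD, n = 2) in the mutant and 20.1 in WT.

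*Prtl99C*, a protamine-like protein needed for the full compaction of the sperm head, had 1478 and 1683 in the mutant and 1665 and 1809 in WT. The values overlapped, with *nsr* mutant 2 above WT 1. The log2 fold change was -0.14 (standard error 0.11), with an interval of the ratio from 0.741 to 1.12 (adjusted p = 0.855 from limma). Without *nsr* mutant 1 the log2 fold change was -0.04, and without *nsr* mutant 2 it was -0.23. *Prtl99C* overlaps *CG42592*, and the part of that gene in the value was not tested.

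*Mst33A*, a relative of the protamines whose part in the sperm head is less well described, had the largest difference of the 8. Its intensities were 870 and 1127 in the mutant and 1288 and 1488 in WT, and the genotypes did not overlap. The means were 998.5 ± 181 (SD, n = 2) and 1388 ± 141 (SD, n = 2), a ratio of 0.719. The log2 fold change was -0.48 (standard error 0.16), with an interval of the ratio from 0.536 to 0.963. It had an unadjusted p of 0.0341 and did not pass after adjustment (adjusted p = 0.690 from limma). *Mst33A* was also the member whose replicates differed most, with *nsr* mutant 1 at 0.772 times *nsr* mutant 2 and WT 1 at 0.866 times WT 2. Without *nsr* mutant 1 its log2 fold change was -0.29, and without *nsr* mutant 2 it was -0.66. The annotation gives its probe set to *Mst33A* alone. The name of that probe set ends in _s_at, as among the 9 only that of the shared *Mst35Ba* and *Mst35Bb* probe set also does. Whether its probes also bind other transcripts was not tested, so that the value may not belong to *Mst33A* alone. The gene overlaps *kek2*, whose 2 probe sets stayed at control level on every array. Of 4 controls with probe sets at both ends of a transcript, those of actin and *Act5C* gave a lower 5′ to 3′ ratio in the mutant (0.745 and 0.687 against 0.823 and 0.783, and 0.229 and 0.227 against 0.297 and 0.264). Those of GAPDH (0.598 and 0.592 against 0.637 and 0.545) and of eIF-4a (0.321 and 0.355 against 0.348 and 0.367) overlapped. The part of this in the values of *Mst33A* was not tested.

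**Figure D2:**
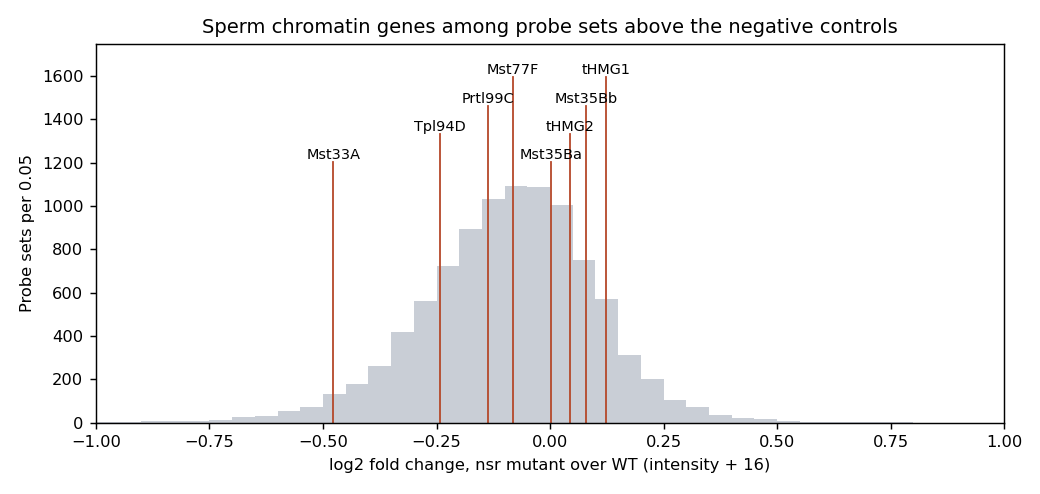
Number of probe sets (vertical axis, per 0.05 of log2 fold change) against the log2 fold change of *nsr* mutant over WT for the 9743 probe sets above the negative controls on all 4 arrays, shown from -1 to 1, with a line for each of the 8 genes. *Mst33A* lies in the left tail at -0.48, and the other 7 lie between -0.24 and 0.12.

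Of the proteins that are present only during the exchange, *Tpl94D* had 1465 and 1802 in the mutant and 1829 and 2026 in WT. All mutant values lay below those of WT, with *nsr* mutant 2 close to WT 1. The mutant mean was 0.848 times the WT mean, with an interval from 0.658 to 1.09 (adjusted p = 0.774 from limma), and the log2 fold change of -0.24 became -0.09 without *nsr* mutant 1 and -0.39 without *nsr* mutant 2. *tHMG1*, whose product carries an HMG box that bends DNA, had 3198 and 3508 in the mutant and 2927 and 3231 in WT. The values overlapped, and the mutant mean was 1.09 times that of WT, with an interval from 0.894 to 1.33 (adjusted p = 0.862 from limma). Its neighbour *tHMG2* had 2598 and 2963 in the mutant and 2587 and 2799 in WT, a ratio of 1.03 with an interval from 0.839 to 1.27. The transition genes thus held both the second lowest log2 fold change of the 8 and the highest.

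**Figure D3:**
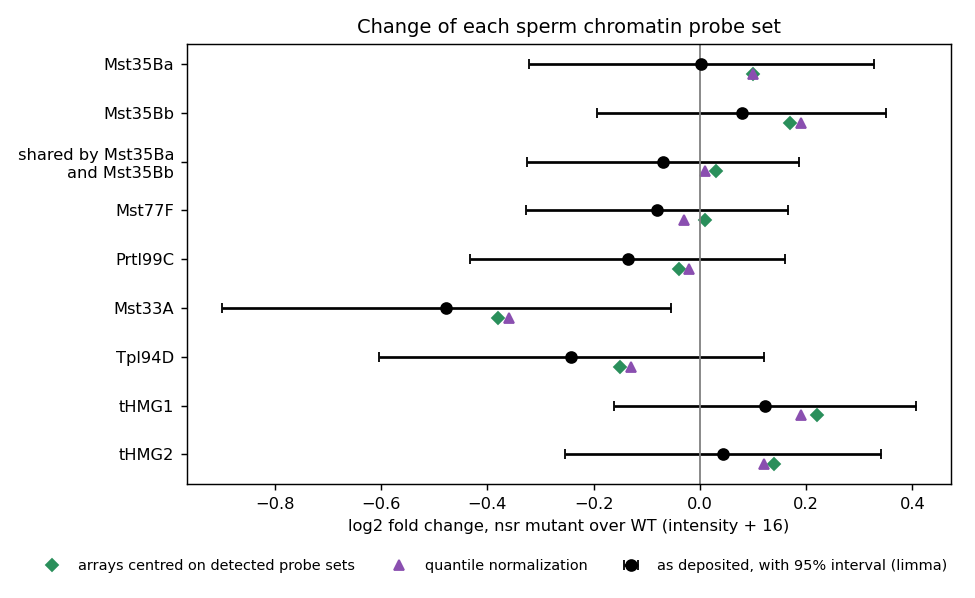
Log2 fold change of *nsr* mutant over WT (horizontal axis, on intensity + 16) for the 9 probe sets, with circles and 95% intervals from limma on the values as deposited, diamonds after centring arrays on the probe sets above the controls, and triangles after quantile normalization. All intervals but that of *Mst33A* span 0, and both scalings move every probe set to the right.

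The brightness of the arrays bears on values this close together. In all 9 probe sets array 1 was below array 2 in both genotypes, with ratios from 0.772 to 0.967 in the mutant and from 0.866 to 0.991 in WT. The median probe set above the controls had ratios of 0.898 and 0.859. When each array was scaled to that median, *Mst33A* had 957 and 1113 in the mutant and 1342 and 1332 in WT, and *Tpl94D* had 1610 and 1780 against 1904 and 1812. Both thus stayed below WT on both arrays, while *Mst77F*, with 6450 and 5993 against 6376 and 5822, no longer did. *Mst35Bb*, *tHMG1* and *tHMG2* then lay above WT on both mutant arrays, *tHMG1* with 3516 and 3464 against 3048 and 2891. After this scaling 22.5% of the probe sets above the controls lay below WT on both mutant arrays and 24.6% above, so that 2 and 3 of the 8 are again near the background. No member passed the test with arrays centred on the log2 median of those probe sets. The scaled intensities themselves were not tested. Leaving out 1 array moved the small differences too, with log2 fold changes from -0.12 to -0.04 for *Mst77F*, from 0.01 to 0.15 for *Mst35Bb* and from 0.05 to 0.19 for *tHMG1*, and with a change of sign for *Mst35Ba* and *tHMG2*.

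A comparison of the genes with each other on the same array takes out a brightness factor that all probe sets of the array share. An array difference that varies between genes stays in it. The ratio of array 1 to array 2 was 0.772 for *Mst33A* and 0.967 for *Mst77F* in the mutant, and 0.866 and 0.941 in WT. The part of this in the values below was not tested. Each gene was set against the mean log2 level of the 8 on its array, and the result expressed relative to the mean of the WT arrays. These deviations add up to 0 over the 8 genes, so that a low value for one raises the others. *Mst33A* stood at 0.720 and 0.807 in the mutant and at 0.971 and 1.03 in WT. *Tpl94D* had 0.869 and 0.927 in the mutant against 0.991 and 1.01, and *Prtl99C* 0.972 and 0.960 against 1.001 and 0.999. On the other side *tHMG1* had 1.18 and 1.13 in the mutant against 0.993 and 1.01 in WT. *tHMG2* had 1.10 and 1.09 against 1.003 and 0.997, *Mst35Bb* 1.15 and 1.10 against 1.01 and 0.993, and *Mst35Ba* 1.04 and 1.09 against 1.02 and 0.977. Only *Mst77F*, with 1.06 and 0.952 against 1.01 and 0.989, overlapped. Thus 3 of the 8 lay below and 4 above on both mutant arrays. Set against the same mean, 21.7% of the 9743 probe sets above the controls lay below and 22.8% above. The 8 genes are part of that mean and the other probe sets are not, so that these shares are not a like background. Nothing particular to the genes is read from the counts.

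**Figure D4:**
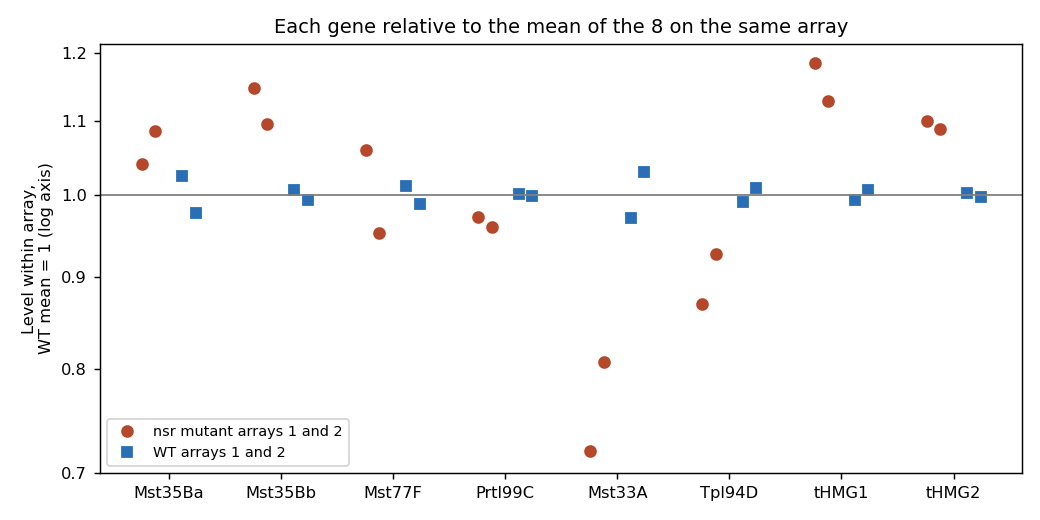
Level of each gene relative to the mean of the 8 genes on the same array, with the WT mean set to 1 (vertical log axis), for the *nsr* mutant arrays (circles) and the WT arrays (squares), array 1 to the left. The mutant arrays run from 0.720 for *Mst33A* to 1.18 for *tHMG1*. The WT arrays lie within 0.971 and 1.03, around 1 by construction, so that their range shows replicate spread alone and is not comparable.

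The ratio of *Mst33A* to *tHMG1* on an array, with the WT mean at 1, was 0.608 and 0.716 in the mutant against 0.978 and 1.02 in WT. That of *Tpl94D* to *tHMG1* was 0.734 and 0.822 against 0.998 and 1.002. *Mst33A* to *Mst35Bb* gave 0.628 and 0.737 in the mutant against 0.965 and 1.037 in WT. *Mst33A* to *Mst77F* gave 0.680 and 0.8485 against 0.960 and 1.042, and *Mst33A* to *Tpl94D* 0.829 and 0.871 against 0.980 and 1.021. The ratios of 3 pairs without *Mst33A* or *Tpl94D* differed less. That of *Mst35Bb* to *tHMG1*, which are not neighbours, was 0.969 and 0.971 in the mutant against 1.014 and 0.986 in WT. That of the neighbours *tHMG1* and *tHMG2* was 1.08 and 1.04 in the mutant against 0.990 and 1.01 in WT. That of the neighbours *Mst35Ba* and *Mst35Bb* was 0.907 and 0.992 against 1.02 and 0.983, which overlapped. These pairs were picked with the values known, and no test was made of them.

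Further genes of the same kind gave a similar picture. Of 7 other genes for sperm nuclear basic or HMG-box proteins, all above the controls, none passed the test, with a median log2 fold change of -0.06 that ran from -0.23 to 0.11 without 1 array. *CG31010* was the lowest, at 1052 and 1199 in the mutant and 1269 and 1449 in WT (log2 fold change -0.27). *ddbt*, which protects the telomeres of paternal chromosomes, was the highest, at 383 and 418 against 338 and 305 (log2 fold change 0.30 with a standard error of 0.11). The interval of its ratio ran from 1.017 to 1.5, and like *Mst33A* it had an unadjusted p under 0.05 (0.0385) and did not pass (adjusted p = 0.690 from limma). The genotypes did not overlap in these 2 genes of the 7, 1 below WT and 1 above, where 27.7% and 7.86% of the probe sets above the controls lie so. *CG30056*, *CG30356*, *CG14835*, *CG34269* and *CG42355* had log2 fold changes of -0.12, -0.07, -0.06, -0.03 and 0.00.

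Among genes that act in the exchange of histones and protamines, 11 of 15 sought were measured by a single-gene probe set. None of the 11 passed, and their median was -0.03, or 0.06 with arrays centred on the probe sets above the controls. The histone chaperone gene *Nlp* was the highest, with 942 and 983 in the mutant and 792 and 886 in WT (log2 fold change 0.20), and *dhd*, a thioredoxin of the egg that loosens protamines, had 0.16. The lowest were *Hira*, which deposits the histone H3.3 on paternal DNA, and its partner *yem*, both at -0.19. *Hira* had 26.7 and 39.7 in the mutant and 31.6 and 49.3 in WT, which overlapped. *yem* had 37.8 and 36.15 against 45.04 and 44.18, which did not. In 2 of the 11 the mutant pair lay wholly below the WT pair and in 1 wholly above, where 27.7% and 7.86% of the probe sets above the controls do. After scaling 0 lay below and 4 above, where 22.5% and 24.6% do.

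None of the 15 testis regulators of spermatid gene transcription passed either (median 0.07, with 0.00 without WT 1 and 0.19 without WT 2). These belong to the tMAC complex, the testis TAFs and the testis bromodomain proteins, on which the transcription of many spermatid genes rests. In 2 the mutant pair lay wholly below the WT pair and in 3 wholly above, where 27.7% and 7.86% of the probe sets above the controls do. After scaling 2 lay below and 9 above, where 22.5% and 24.6% do. With arrays centred on those probe sets the median was 0.17. The lowest were the testis TAFs *can*, at 110 and 141 in the mutant and 147 and 189 in WT (log2 fold change -0.38), and *mia* (-0.26). The highest were *vis*, at 195 and 237 against 131 and 198 (0.38), and the testis TAF gene *nht* (0.21).

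The sperm tail genes and others with stored transcripts are the most like the sperm chromatin genes in their timing. None of the 11 passed, and their median log2 fold change was -0.14. In 10 of the 11 it was below 0, as it was for 68% of the probe sets above the controls. In 7 the mutant pair lay wholly below the WT pair, against 3 of the 8 sperm chromatin genes and 27.7% of the probe sets above the controls. After scaling to those probe sets, 1 of the 11, 2 of the 8 and 22.5% did. In 0 of the 11 the mutant pair lay wholly above, as deposited or scaled, where 7.86% and 24.6% of those probe sets do. With arrays centred on them the median of the 11 was -0.04. The lowest were *djl*, at 778 and 1141 in the mutant and 1171 and 1352 in WT (-0.41), and its relative *dj*, at 346 and 533 against 499 and 630 (-0.37). The highest were *Mst84Dc* (0.03) and *Mst98Cb* (-0.09). The difference between these lists and the sperm chromatin genes was not tested.

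**Figure D5:**
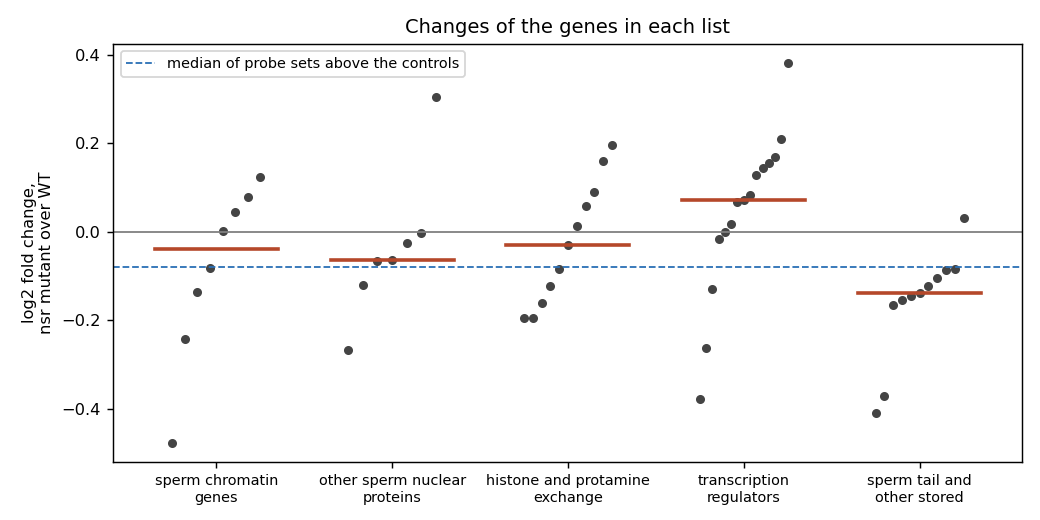
Log2 fold change of *nsr* mutant over WT (vertical axis) for each gene of 5 lists, 1 point a gene, with a bar at the median of the list and a dashed line at -0.08, the median of the probe sets above the controls. The medians of the lists lie between -0.14 and 0.07, and *Mst33A*, at -0.48, is the lowest point.

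The profile over the 4 arrays was compared between the mean of the 8 genes and the 8600 other single-gene probe sets above the controls, each centred on its own mean. The nearest were *Mst98Cb*, *CG12123*, *Mlf*, *SmD1* and *Rrp5*, with a root mean square distance on the log2 scale from 0.00539 to 0.00942. *Mst98Cb*, a sperm tail protein, had 2739 and 3120 in the mutant and 2975 and 3232 in WT. The 8 genes themselves lay at distances from 0.0259 to 0.206 from their own mean. Of the 8600 other probe sets, 119 lay closer to that mean than any of the 8 genes did. Nothing particular is therefore read from the nearest.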

How the data were processed

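The authors extracted testis RNA with Trizol, amplified and biotin-labelled it, and used 1 array of 1 colour for each sample. They deposited a linear intensity for every probe set. The software that summarised, corrected or scaled the probes was not given in the sources used here, and the labels and methods name different labelling kits. The intensities were analysed as deposited, without the 183 control probe sets.

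Probe sets were named through the platform annotation, with symbols updated by gene ID from a RefSeq table of release 6 of the genome, which held the gene of 13544 of 13647 single-gene probe sets. A gene with several probe sets is represented by the brightest. The test was limma 3.58.1 (lmFit, eBayes; R 4.3.3) between genotypes on log2(intensity + 16), two-sided, without covariates, with Benjamini-Hochberg adjustment over 18769 probe sets and a threshold of 0.05. Intervals are 95% intervals from limma, turned into ratios. Figures were made with matplotlib 3.10.9. The SAM software named in the methods was not used. The limma step was run on simulated arrays with independent noise and no brightness difference between arrays. That run therefore does not show how the step behaves when arrays differ in brightness. The number of arrays limits the precision.

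The members were given by name, and the other gene lists were chosen with earlier results of these data known. The text names all members, the other sperm nuclear genes, the 2 highest and 2 lowest genes of each other list and the 5 nearest profiles. *fln*, the genes named for a marker sum, the overlapping genes and the gene pairs were picked with their values known. The alternatives were a pseudocount of 1 or 64, centred arrays, quantile normalization, filters on level, an intensity trend, a replicate block, leaving out each array and all probe sets of a gene. Centring on detected probe sets and the filter at the controls were added after seeing the data.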

Additional observations from a re-analysis of the deposited data

How the results depend on the processing

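No sperm chromatin probe set was called under any alternative run, and *Mst33A*, *Tpl94D* and *Prtl99C* stayed below 0 and *Mst35Bb* and *tHMG1* above it in all of them, with *Mst33A* from -0.66 to -0.29 (adjusted p from 0.212 to 0.988). Of 126 log2 fold changes of the 9 probe sets under the alternatives 8 changed sign, all of them within 0.13 of 0. The probe set shared by *Mst35Ba* and *Mst35Bb* went from -0.07 to 0.00 with array medians centred, 0.03 with detected probe sets centred and 0.01 with quantile normalization, and *Mst77F* to 0.01 with detected probe sets centred. Without *nsr* mutant 2 *Mst35Ba* had -0.13 and *tHMG2* -0.05, and without WT 1 they had -0.02 and -0.01, within ranges of -0.13 to 0.13 and -0.05 to 0.14 without 1 array. The number of called probe sets was 0 with a pseudocount of 1 and without any 1 array, 2 with the replicate block, 3 with quantile normalization, 111 with array medians centred and 80 with detected probe sets centred. It was 136 and 122 without probe sets below the 25th percentile and the median, and 117 without those not above the controls, and the adjusted p of *nsr* fell from 0.00837 to 4.79e-96 with the first of these filters. The prior degrees of freedom that limma estimated from all probe sets in a fit went from 2.79 to infinity with each of the 3 filters and to 24.4 and 26.2 with the 2 centrings, and was 2.73 with quantile normalization. What in the probe sets moves them was not tested. The *nsr* log2 fold change was -4.39 with a pseudocount of 1 (adjusted p = 0.346), which was no longer called, and from -3.85 to -3.70 without 1 array (adjusted p from 0.0945 to 0.981). None of the latter was called, and in them the lone array is assumed to vary like the other genotype. The replicate numbers are not known to pair the arrays. Differences between arrays 1 and 2 correlated at 0.12 between genotypes across 9743 probe sets, and the block moved the calls from 1 to 2 and called no sperm chromatin probe set.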
